A study of Mus musculus with 12 samples.

Results

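Beta-defensins and related antimicrobial proteins of the eye surface were followed across mouse corneas that lacked Dscr1, Apoe, both or neither, and across sutured corneas. The 9 listed genes are Defb1, Defb3, Defb4, Defb14, Camp, Ltf, Pglyrp1, Slpi and Wfdc18. A gene was represented by the probe set, annotated with that symbol alone, that had the highest mean log2 value over the 12 arrays. Of the 9, 8 had such a probe set among 18194 genes with one, and 7 were bright enough to stay among the 12711 genes tested. Defb14 had no probe set with its symbol alone and was not analysed here, and Camp was too dim to be tested. Probe sets, and the genes to be tested, were thus selected on their mean log2 intensity over all arrays. On the intensity scale, means over the 12 arrays were 2130.4 for Defb1, 1190.3 for Slpi, 890 for Pglyrp1, 786.2 for Defb4, 489.6 for Defb3, 459 for Ltf, 66.2 for Wfdc18 and 7 for Camp. Only Defb1 had a second probe set. The list was drawn up with earlier results of these arrays known, in which Defb3 and Defb4 stood among the genes most raised by Dscr1 loss. Both also stayed among the tested genes only through the 4 intact arrays without Dscr1, since their mean log2 over the other 8 arrays, 2.38 for Defb3 and 2.49 for Defb4, lies below the filter of 3.71. Their values in every comparison that turns on Dscr1 are therefore descriptions, without p-values, and nothing is read from counts that hold them.

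The corneas came from mice given as C57BL/6J, and each array held RNA of the whole cornea. Intact corneas comprised double KO (null for Dscr1 and Apoe), Dscr1KO (Dscr1-null), ApoeKO (Apoe-null) and wild type (WT), with 2 arrays labelled as biological replicates in each. Sutured corneas comprised Dscr1KO and WT at day 5 after suturing and Dscr1 transgenic (Tg) and WT at day 7, with 1 array each. The sources used here give neither the transgene's promoter, nor the deleted part of Dscr1, nor the sex and age of the mice. Dscr1 is an earlier symbol for Rcan1, whose product binds and regulates calcineurin, and Apoe encodes a lipid-carrying protein of lipoproteins.

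Beta-defensins are small cationic peptides, held in shape by disulfide bonds, that damage microbial membranes and can also attract immune cells. In surface epithelia, some are made constantly, and others are switched on by interleukin-1, interleukin-17 or microbial products. At the eye surface they act beside larger proteins: lactoferrin, the product of Ltf, binds iron, the Pglyrp1 product binds bacterial peptidoglycan, and the Slpi product inhibits neutrophil proteases. The Camp product is cathelicidin, an antimicrobial peptide stored in neutrophil granules, and Wfdc18 encodes a small protein of the same four-disulfide-core type as Slpi.

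Array medians lay between 15.6 and 21.1 intensity units, and the number of arrays limits the precision. Several libraries stood apart from their labels or from their replicates. Rcan1 itself read between 331.7 and 479.1 on the 5 arrays labelled Dscr1-null, against between 548.3 and 668.2 on the other 7, and where its probe set lies relative to the deletion is unknown here. The library labelled ApoeKO replicate 1 read 849.3 for Apoe, against 7.5 in ApoeKO replicate 2. The library labelled Dscr1KO replicate 2 read 316.8, and its label fields name Dscr1 loss in some places and Apoe loss in others. Xist, made from the inactive X chromosome, read at least 4104 in both ApoeKO, both Dscr1KO and 1 double KO array, and at most 19.6 in the other 7. Double KO replicate 1 carried photoreceptor transcripts with a summed intensity of 3208.6, against at most 265.6 on every other array. Lens transcripts summed to between 4927.4 and 6797.3 in intact WT and to 4803.3 in sutured WT at day 7, and to at most 717.1 on the other arrays.

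The stretch of 250 bases before the annotated start is shown for the genes raised by Dscr1 loss that have an entry in the RefSeq promoter table (GRCm38.p6), so that the sequences can be set side by side. Defb3 lies on the plus strand at chr8:19293111-19293360, Slpi on the minus strand at chr2:164356508-164356757, Ltf on the plus strand at chr9:111019042-111019291 and Wfdc18 on the plus strand at chr11:83708754-83709003. Each is written in the direction of its gene, and capitals mark the motif matches described after the sequences.
Defb3: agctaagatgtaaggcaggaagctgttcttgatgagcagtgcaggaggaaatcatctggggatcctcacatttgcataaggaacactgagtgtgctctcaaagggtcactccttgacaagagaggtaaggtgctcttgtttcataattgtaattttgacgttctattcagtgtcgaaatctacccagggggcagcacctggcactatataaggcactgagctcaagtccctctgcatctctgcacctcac
Slpi: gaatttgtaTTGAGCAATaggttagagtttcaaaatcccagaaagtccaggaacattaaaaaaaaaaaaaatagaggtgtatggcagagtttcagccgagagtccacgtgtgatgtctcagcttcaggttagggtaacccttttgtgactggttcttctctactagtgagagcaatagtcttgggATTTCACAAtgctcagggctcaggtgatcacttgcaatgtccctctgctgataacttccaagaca
Ltf: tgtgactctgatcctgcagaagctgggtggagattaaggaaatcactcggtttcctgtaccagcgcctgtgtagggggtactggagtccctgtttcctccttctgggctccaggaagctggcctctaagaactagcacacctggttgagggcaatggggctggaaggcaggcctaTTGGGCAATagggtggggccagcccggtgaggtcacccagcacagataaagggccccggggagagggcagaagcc
Wfdc18: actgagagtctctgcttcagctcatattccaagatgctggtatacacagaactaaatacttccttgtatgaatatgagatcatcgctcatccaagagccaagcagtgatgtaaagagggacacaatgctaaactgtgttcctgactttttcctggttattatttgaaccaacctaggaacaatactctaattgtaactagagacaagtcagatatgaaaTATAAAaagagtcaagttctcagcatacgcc
Both strands were searched for 6 motifs, and a match describes letters in this window, not a bound site. The C/EBP pattern TTNNGNAAT was matched once in Ltf, at bases -75 to -67, and in Slpi at -241 to -233 and again at -65 to -57. It is present in 10.2% of 32851 promoter windows of this length. TATAAA was matched in Wfdc18 at -31 to -26 and is present in 12.4% of the windows. None of the 4 sequences held the NF-kB pattern GGNNTTNCC (13.5% of windows), the AP-1 pattern TGANTCA (6.75%), the STAT pattern TTCNNNGAA (7.02%) or the NFAT core TGGAAA (18.6%). Promoter windows of 6 listed genes were found, and Pglyrp1, not shown, held the NF-kB pattern at 2 places, one of them overlapping its NFAT match.

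**Figure D1:**
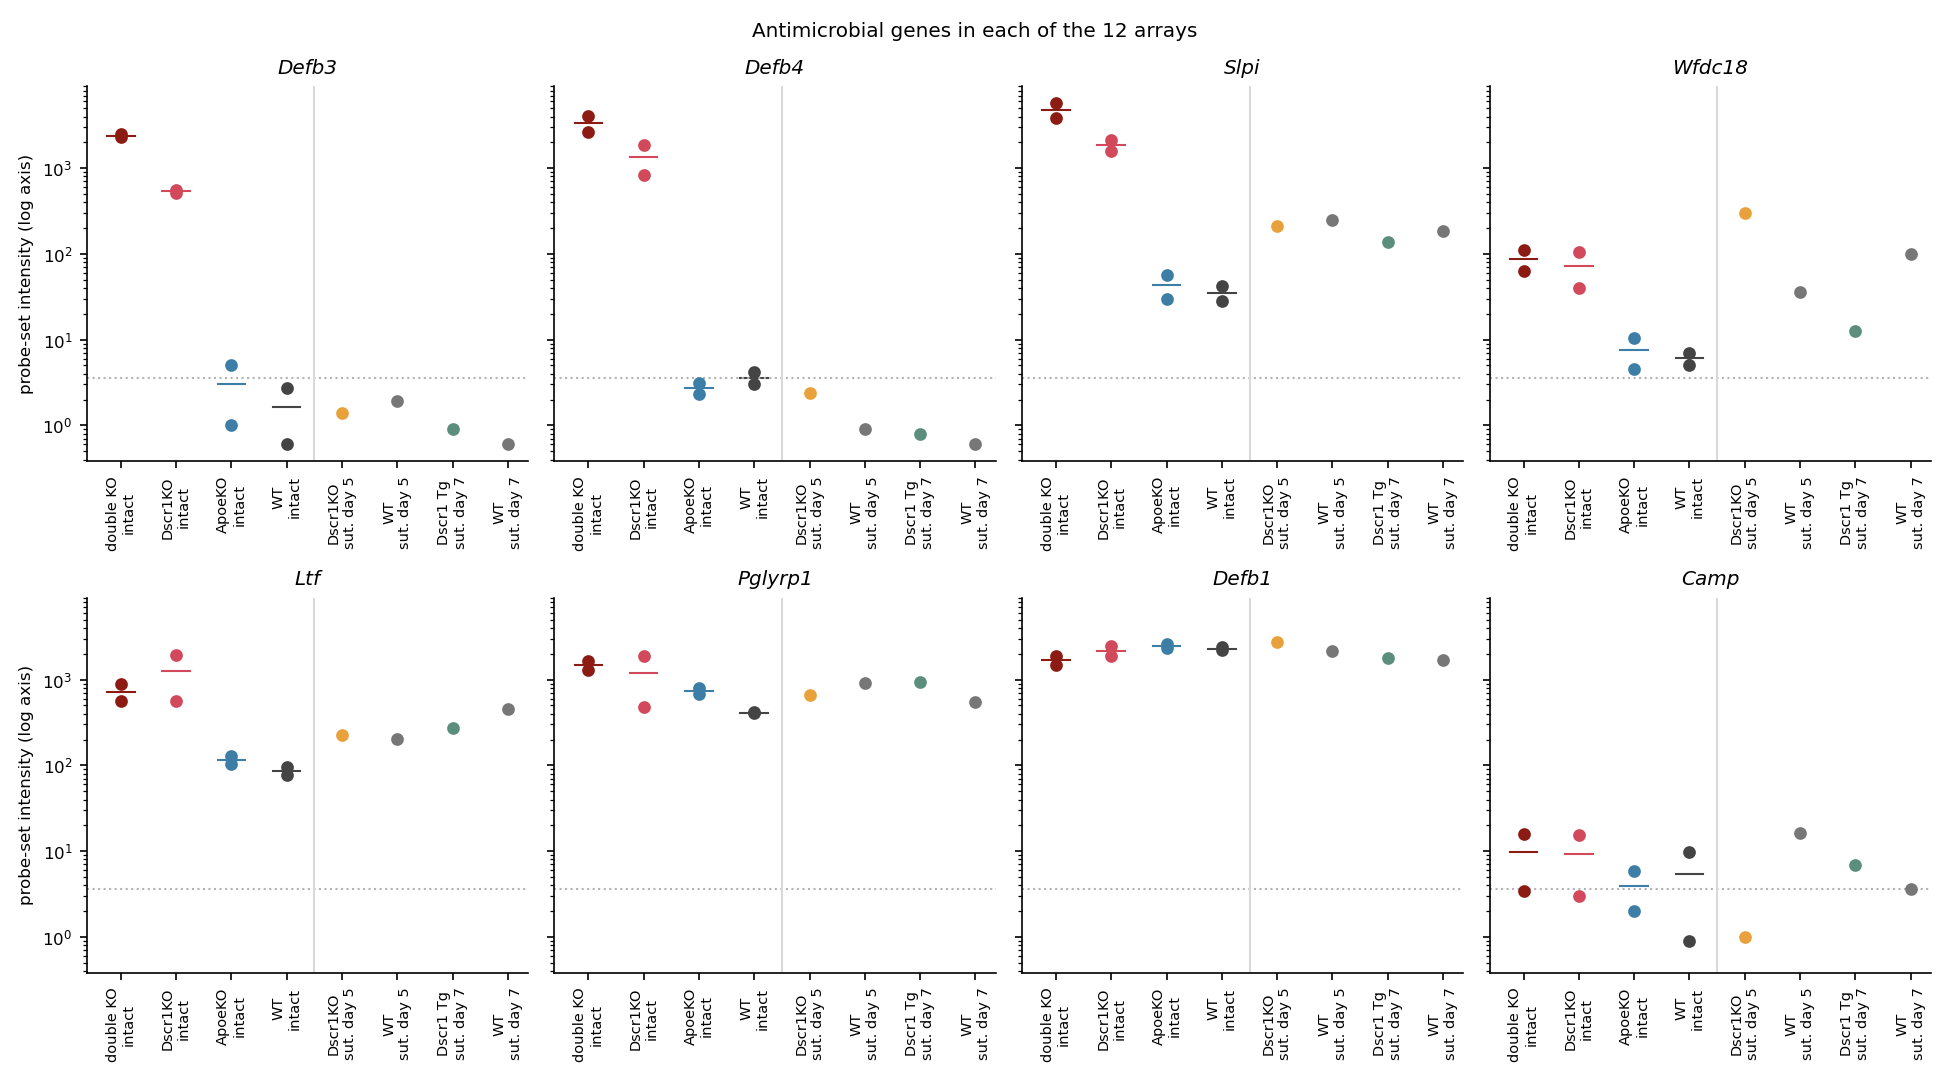
Probe-set intensity on a log axis of the 8 measured genes in each of the 12 arrays; points are arrays, short bars the means of 2 replicates, and the dotted line the added constant of 3.6. Defb3 and Defb4 lie at 515.8 or above in the 4 intact arrays without Dscr1 and at 5 or below in the other 8.

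The first question was how these genes differ between intact corneas with and without Dscr1. Defb3 and Defb4, the inducible beta-defensins of the set, were near background with Dscr1 present and bright without it, Slpi was raised on a similar scale, and Ltf and Wfdc18 rose less. Defb1, the constantly made beta-defensin, was bright in every cornea, and Camp was near background in every cornea. Averaged over both Apoe backgrounds, 5 of the 7 tested genes passed as higher without Dscr1 and 0 as lower, where 16.2% of all tested genes passed as higher and 15.3% as lower. The 5 were Defb3 and Defb4, listed for this rise, with Slpi, Ltf and Wfdc18, so the count is a description. Of the 5 genes that pass the filter without the 4 intact arrays lacking Dscr1, those last 3 rose. In Dscr1KO against WT, where 7.78% of all genes passed as higher, the same 5 were past the threshold, as they were in double KO against ApoeKO, where 10.9% of all genes passed. For each of the 5 genes the 4 arrays without Dscr1 lay above the 4 with it, a pattern found in 16.7% of all genes. Changes are log2 differences of intensity plus 3.6, with the standard error (SE). Adjusted p-values come from limma, by the Benjamini-Hochberg method across all 12711 genes. An alternative fit took Xist as a term. That term rests mainly on the double KO replicates, the only ones of an intact group far apart in Xist (4256.9 and 19.6). These arrays also differ in photoreceptor transcripts (3208.6 and 26.8), so results with Xist as a term cannot separate the 2. In RNA from a whole cornea, fewer cells of a type and less RNA per cell cannot be told apart. Xist read 4104 and 5385.2 in intact Dscr1KO, against 14.9 and 8.9 in intact WT. Lens transcripts summed to 238.2 and 498.7 in intact Dscr1KO, against 6797.3 and 4927.4 in intact WT. For every gene, Dscr1 loss in Dscr1KO against WT therefore cannot be told apart from these differences.

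Defb3 encodes an inducible defensin of surface epithelia. It read 2302.1 and 2490.7 in double KO and 552.8 and 515.8 in Dscr1KO, against 1 and 5 in ApoeKO and 2.7 and 0.6 in WT. The 4 arrays without Dscr1 were all far above the 4 with it, and the double KO arrays were above the Dscr1KO arrays. The fitted change was 6.71 ± 0.33 for Dscr1KO against WT and 8.57 ± 0.33 for double KO against ApoeKO (SE, 2 arrays per group). Readings at or below 3.6 are at the level of the added constant, so the size of these changes depends on it.

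Defb4 encodes a second inducible epithelial defensin, and its pattern followed that of Defb3. It read 4077.7 and 2660.3 in double KO and 835.9 and 1843.2 in Dscr1KO, against 2.3 and 3.1 in ApoeKO and 3 and 4.2 in WT. Again no array without Dscr1 overlapped an array with it, while the Dscr1KO replicates differed from each other by 1.14 on the log2 scale. The fitted change was 7.44 ± 0.38 for Dscr1KO against WT and 9.03 ± 0.38 for double KO against ApoeKO.

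Slpi, the protease inhibitor, read 5738.3 and 3882.9 in double KO and 1587.8 and 2136 in Dscr1KO, against 57 and 29.7 in ApoeKO and 42.3 and 28.3 in WT. Unlike the inducible defensins, Slpi read above the added constant in all 4 corneas that carried Dscr1, and the groups with and without Dscr1 did not overlap. It rose by 5.59 ± 0.34 in Dscr1KO against WT (adjusted p = 0.000192) and by 6.72 ± 0.34 in double KO against ApoeKO (adjusted p = 6.34e-05). Mean intensities were 4810 ± 1310 in double KO, 1860 ± 388 in Dscr1KO, 43.4 ± 19.3 in ApoeKO and 35.3 ± 9.9 in WT (SD, n = 2 each).

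Ltf, which encodes lactoferrin, read 560.2 and 881.8 in double KO and 1943.6 and 561 in Dscr1KO, against 105 and 127.2 in ApoeKO and 95.4 and 76.3 in WT. Every array without Dscr1 was above every array with it, and the Dscr1KO replicates were 1.79 apart on the log2 scale. Ltf rose by 3.56 ± 0.51 in Dscr1KO against WT (adjusted p = 0.00576) and by 2.57 ± 0.51 in double KO against ApoeKO (adjusted p = 0.013). The call against WT was lost without WT replicate 2 (adjusted p = 0.0609) and with Xist as a term (adjusted p = 0.0811). The call against ApoeKO was lost without the library labelled ApoeKO replicate 1 (adjusted p = 0.0842), ApoeKO replicate 2 (0.0741) or double KO replicate 2 (0.0621), and with Xist as a term (0.0642).

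Wfdc18, the small four-disulfide-core gene, read 112 and 63.8 in double KO and 104.9 and 40.3 in Dscr1KO, against 10.5 and 4.5 in ApoeKO and 7 and 5.1 in WT. The groups with and without Dscr1 did not overlap, and the Dscr1KO replicates were 1.3 apart on the log2 scale. Wfdc18 rose by 2.85 ± 0.51 in Dscr1KO against WT (adjusted p = 0.013) and by 3.05 ± 0.51 in double KO against ApoeKO (adjusted p = 0.00695). The call against WT was lost without WT replicate 1 (adjusted p = 0.0764) or WT replicate 2 (0.107) and with Xist as a term (0.3), and the call against ApoeKO without ApoeKO replicate 2 (0.0644). As for Ltf, the Xist term rests mainly on the double KO replicates. The Wfdc18 probe set is of a type that can match more than one transcript, so a contribution of related genes was not tested.

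Pglyrp1, the peptidoglycan-binding gene, read 1658.2 and 1295.1 in double KO and 1879.8 and 482.9 in Dscr1KO, against 670.9 and 791.5 in ApoeKO and 409.1 and 416.2 in WT. The library labelled Dscr1KO replicate 2 lay below both ApoeKO arrays, so the groups with and without Dscr1 overlapped. The averaged change of 1.10 ± 0.37 did not pass (adjusted p = 0.0546). It passed after quantile normalization (adjusted p = 0.0444), with a replicate block (0.049) and when both libraries with a doubtful Apoe reading were left out (0.00214). Without Dscr1KO replicate 2 it was 1.59 ± 0.12 (adjusted p = 0.000279), and without Dscr1KO replicate 1 it was 0.61 ± 0.12 (adjusted p = 0.00656). In double KO against ApoeKO, where the groups did not overlap, the change was 1.0 ± 0.52 (adjusted p = 0.215). That change passed in a fit of those groups alone (adjusted p = 0.0152), without both doubtful libraries (0.89, adjusted p = 0.0387) and without either Dscr1KO replicate (0.00384 each).

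Defb1 is the defensin that surface epithelia make without a stimulus. It read 1897.2 and 1501 in double KO and 2441.6 and 1898.8 in Dscr1KO, against 2325.7 and 2572.4 in ApoeKO and 2187 and 2380.1 in WT. It was bright on every array, and the groups with and without Dscr1 overlapped. The averaged change was -0.31 ± 0.13 (adjusted p = 0.11), and without Dscr1KO replicate 1 it was -0.40 ± 0.12 and passed (adjusted p = 0.0296). Both double KO arrays lay below both ApoeKO arrays, a change of -0.53 ± 0.19 (adjusted p = 0.0817). It passed without Dscr1KO replicate 1 (adjusted p = 0.0334) or replicate 2 (0.034), which leaves its size as it was. The second Defb1 probe set read 1503 and 955.8 in double KO and 1599 and 1115 in Dscr1KO, against 1307.9 and 1587.5 in ApoeKO and 1541.3 and 1511.7 in WT. It placed the groups in an overlapping range as well.

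Camp, which encodes cathelicidin, read 15.9 and 3.4 in double KO and 15.6 and 3 in Dscr1KO, against 5.8 and 2 in ApoeKO and 9.8 and 0.9 in WT. In double KO, Dscr1KO and WT the replicates were further apart than any of the genotype means, which ran from 3.9 to 9.65. At day 5 after suturing it read 1 in Dscr1KO and 16.1 in WT, and at day 7 it read 6.8 in Tg and 3.6 in WT. Its mean lay below the filter on low values, so it was not tested.

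**Figure D2:**
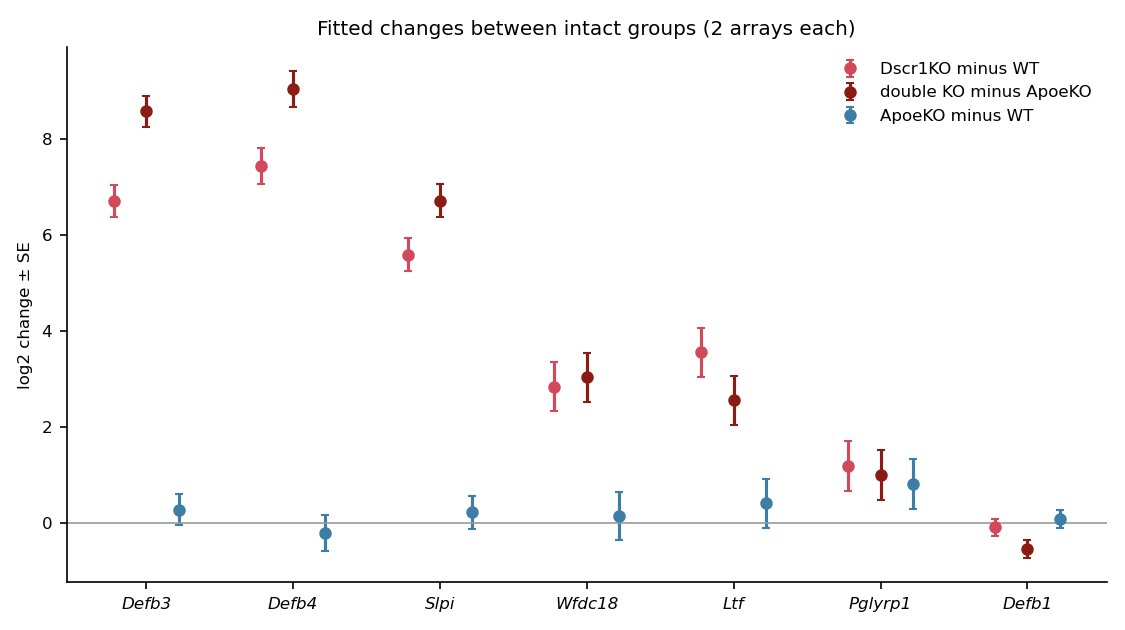
Fitted log2 changes with standard errors for the 7 tested genes in 3 comparisons of intact corneas, each group with 2 arrays. Changes of Defb3, Defb4 and Slpi lie between 5.59 and 9.03 in both Dscr1 comparisons, and those of ApoeKO against WT lie between -0.19 and 0.82.

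The next question was whether Apoe loss alone, or Apoe loss on top of Dscr1 loss, moved these genes. In ApoeKO against WT, 0 of 7 genes passed by limma, where 0.0236% of all tested genes passed, and at an unadjusted p under 0.05 the counts were 0 of the 7 and 477 of all genes. Pglyrp1 had the largest change, 0.82 ± 0.52 (adjusted p = 1), with both ApoeKO arrays above both WT arrays. With ApoeKO and WT fitted alone its SE was 0.11, and it passed (adjusted p = 0.0113). Xist read 4622.1 and 4598 in ApoeKO, against 14.9 and 8.9 in WT. Lens transcripts summed to 409 and 95.3 in ApoeKO, against 6797.3 and 4927.4 in WT. Apoe loss in this comparison cannot be told apart from these differences. The test of whether Dscr1 loss acted differently with Apoe absent also gave 0 of 7 genes past the threshold, where 0.00787% of all genes passed. At an unadjusted p under 0.05 it gave 3 of the 7 and 964 of all genes.

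Those 3 were Defb3, Defb4 and Slpi, and all read higher in double KO than in Dscr1KO. The difference between the Dscr1 effects was 1.87 ± 0.47 for Defb3, 1.60 ± 0.53 for Defb4 and 1.12 ± 0.48 for Slpi, of which only Slpi's is read as a test (adjusted p = 0.653). The direct difference, double KO minus Dscr1KO, was 2.16 for Defb3, 1.40 for Defb4 and 1.36 for Slpi. For each, both double KO arrays lay above both Dscr1KO arrays, a pattern whose share among all genes is not given here. Ltf went the other way, with an interaction of -0.99 ± 0.72 (adjusted p = 0.758). Since 1 library of each single null has a doubtful Apoe level, these differences rest on labels that the Apoe readings do not all bear out.

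Genes known to act beside these ones were read from lists. Of 33 other antimicrobial genes, 29 had a probe set and 14 were tested, and 11 passed as higher without Dscr1 and 0 as lower, beside 16.2% and 15.3% of all tested genes. Leaving aside Reg3g and Wfdc21, which pass the filter only through the 4 intact arrays without Dscr1, 9 of 12 rose. The 14 genes' median averaged change was 2.80, against -0.02 over all tested genes. The average hides 1 gene, Ang, that went opposite ways in the 2 Dscr1 comparisons. In Dscr1KO against WT, 10 passed as higher and 1 as lower, where 989 and 493 of all 12711 genes did. The 1 was Ang, at -3.89 ± 0.45 (limma adjusted p = 0.00259). In double KO against ApoeKO, 9 passed as higher and 0 as lower, where 10.9% of all genes passed as higher. There Ang rose by 2.10 ± 0.45 (adjusted p = 0.0162). S100a8 and S100a9, which encode the subunits of the metal-binding protein calprotectin, rose by 7.44 ± 0.44 (adjusted p = 5.53e-05) and 5.75 ± 0.36 (adjusted p = 7.28e-05). Reg3g, a lectin active against Gram-positive bacteria in the mouse gut, read between 54.3 and 646.5 without Dscr1 and at most 1.6 on the other 8 arrays. Wfdc12, another four-disulfide-core gene, rose by 4.81 ± 0.38 (adjusted p = 0.000186).

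Among the other beta-defensins on the array, 17 had a probe set and only Defb6 passed the filter on low values. Defb6 read 86.3 and 65.2 in double KO and 16.6 and 41.6 in Dscr1KO, against 7.7 and 7.2 in ApoeKO and 4.4 and 4.9 in WT. The groups with and without Dscr1 did not overlap, and the double KO arrays were again above the Dscr1KO arrays. Defb6 too passed the filter only through the 4 arrays without Dscr1, so it is described and not tested. In the 4 sutured corneas it read between 4.2 and 6.4.

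**Figure D3:**
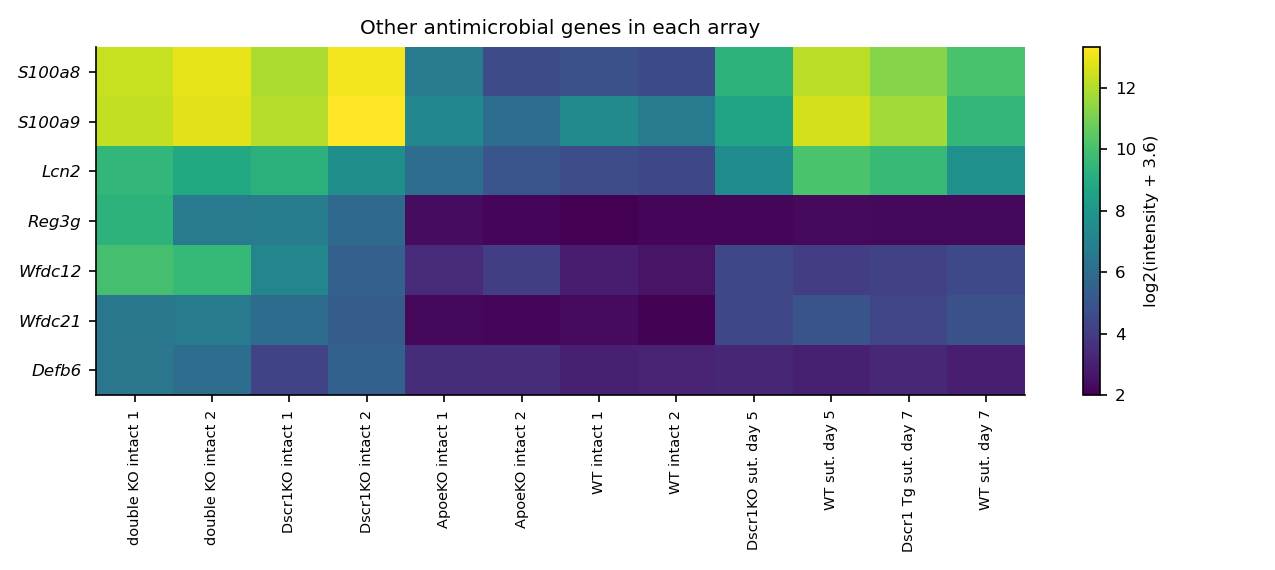
Heat map of log2(intensity + 3.6) for 7 antimicrobial genes outside the set, with 1 column per array and brighter colour for higher values. Reg3g, Wfdc12 and Defb6 each have higher values in the 4 intact arrays without Dscr1 than in any of the 4 sutured corneas, while the S100a8 range of 642.3 to 4596.4 in sutured corneas reaches that of intact corneas without Dscr1.

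Of the cytokines, receptors and signalling genes that induce defensins, a smaller share passed than of the other antimicrobial genes. Of 24 tested, 10 rose and 2 fell on average with Dscr1 loss, beside 16.2% and 15.3% of all tested genes, with a median of 0.38. Il1b, which encodes interleukin-1 beta, rose by 4.15 ± 0.47 (adjusted p = 0.000803). Il1f6, the older symbol of the epithelial cytokine gene Il36a, rose by 2.65 ± 0.24 (adjusted p = 0.00029). The interleukin-1 receptor gene Il1r1 rose by 2.38 ± 0.13 (adjusted p = 3.8e-05), and Il17ra, which encodes a subunit of the interleukin-17 receptor, rose by 1.45 ± 0.16 (adjusted p = 0.000789). Egfr, the epidermal growth factor receptor gene, and Il17re, the receptor gene for interleukin-17C, were the 2 that fell, with changes of -1.08 ± 0.17 (adjusted p = 0.00276) and -0.58 ± 0.10 (adjusted p = 0.00487).

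Of the receptors, partners and processing enzymes of antimicrobial peptides, 9 were tested, 5 rose and 1 fell, beside 16.2% and 15.3% of all tested genes, with a median of 1.05. One of the 5 is Klk7, a protease that processes cathelicidin in human skin, which passed the filter only through the intact arrays without Dscr1. Its fitted change of 4.44 ± 0.41 is a description. Fpr2, a chemotactic receptor of myeloid cells, rose by 3.68 ± 0.38 (adjusted p = 0.000563), and Trem1, a receptor that amplifies myeloid inflammation, by 2.30 ± 0.32 (adjusted p = 0.00172). The member that fell was Egfr, which the list of inducers also holds. Elane, Ctsg and Prtn3, which encode neutrophil granule proteases, read at most 16 on every array and were not tested.

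Marker genes of several cell classes moved with Dscr1 loss in the same intact corneas. The calls stand beside 16.2% of all tested genes that passed as higher and 15.3% that passed as lower. Cornified epidermis markers summed to between 14695.8 and 20867.2 without Dscr1, against between 200.2 and 258 with it, and 6 of 6 tested rose, while Krt2 read at most 6.3 everywhere. Neutrophil markers, a list that shares S100a8, S100a9 and Lcn2 with the antimicrobial genes, summed to between 9621.6 and 20093.5 without Dscr1, against between 267.2 and 446.4 with it. Most of each sum without Dscr1 came from S100a8, at 3892.7 to 9010.6, and S100a9, at 4268.9 to 10318.8. The sums thus largely repeat the antimicrobial genes. Of 10 neutrophil markers tested, 9 rose and 1, Itgam, fell. Ngp, a granule gene of maturing neutrophils, read at most 60.6. Conjunctiva and goblet markers summed to between 15144.2 and 20788.9 without Dscr1, against between 1871.8 and 3147.7 with it, and 6 of 7 rose. Among them Muc5ac, the goblet cell mucin gene, read at least 102.6 without Dscr1 and at most 7.5 with it. Macrophage markers summed to between 2517.8 and 4654.4 without Dscr1, against between 327.5 and 892.2 with it, and 5 of 7 rose. Of the marker genes counted as rising, 3 cornified epidermis, 3 neutrophil and 2 conjunctiva and goblet genes, Muc5ac among them, pass the filter only through the intact arrays without Dscr1. The part of these cell classes in the antimicrobial values was not tested.

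Markers of the labelled tissue were present throughout. Their calls, too, stand beside 16.2% of all tested genes as higher and 15.3% as lower. Corneal epithelium markers summed to between 29672.4 and 45162.3 without Dscr1 and to between 28325.2 and 40677 with it, and of 7 tested 1 rose and 1 fell. Keratocyte markers summed to between 9408.6 and 12456.5 without Dscr1 and to between 10628.2 and 16422.7 with it, and of 4 tested 0 rose and 1 fell. Kera read between 441.3 and 1677 without Dscr1 and between 3451.6 and 4992.8 with it, while Lum, Dcn and Ptgds overlapped. All 4 corneal endothelium markers fell on average, with sums between 791.7 and 2200.4 without Dscr1 and between 2400.1 and 4189 with it. Of lacrimal gland markers, Pip, Prol1, Lpo and Dmbt1 were near background, and meibomian gland markers summed to at most 31.1 on any array. The array with photoreceptor transcripts and the array without them gave Defb3 readings of 2302.1 and 2490.7 in double KO. A further fit took only the 5 intact arrays with Xist: both ApoeKO, both Dscr1KO and double KO replicate 1, with no WT. It set the mean of the Dscr1KO and double KO groups against ApoeKO. Dscr1KO thus differs from its reference in the Apoe label as well, and ApoeKO replicate 1 read 849.3 for Apoe. The changes in this fit therefore cannot be ascribed to Dscr1 loss alone. In the 5 intact arrays with Xist, fitted alone, Slpi rose by 6.18 ± 0.31 (adjusted p = 0.00286), Wfdc18 by 3.06 ± 0.50 (0.0322) and Ltf by 2.69 ± 0.54 (0.047). With Defb3 and Defb4, 5 of 7 genes were past the threshold, where 6.19% of all genes were. Defb3 and Defb4 were listed for this rise and pass the filter only through the intact arrays without Dscr1. That count is therefore a description, and nothing is read from it. Leaving them aside, Slpi, Wfdc18 and Ltf passed in this limma fit, and Pglyrp1 (adjusted p = 0.418) and Defb1 (0.361) did not.

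**Figure D4:**
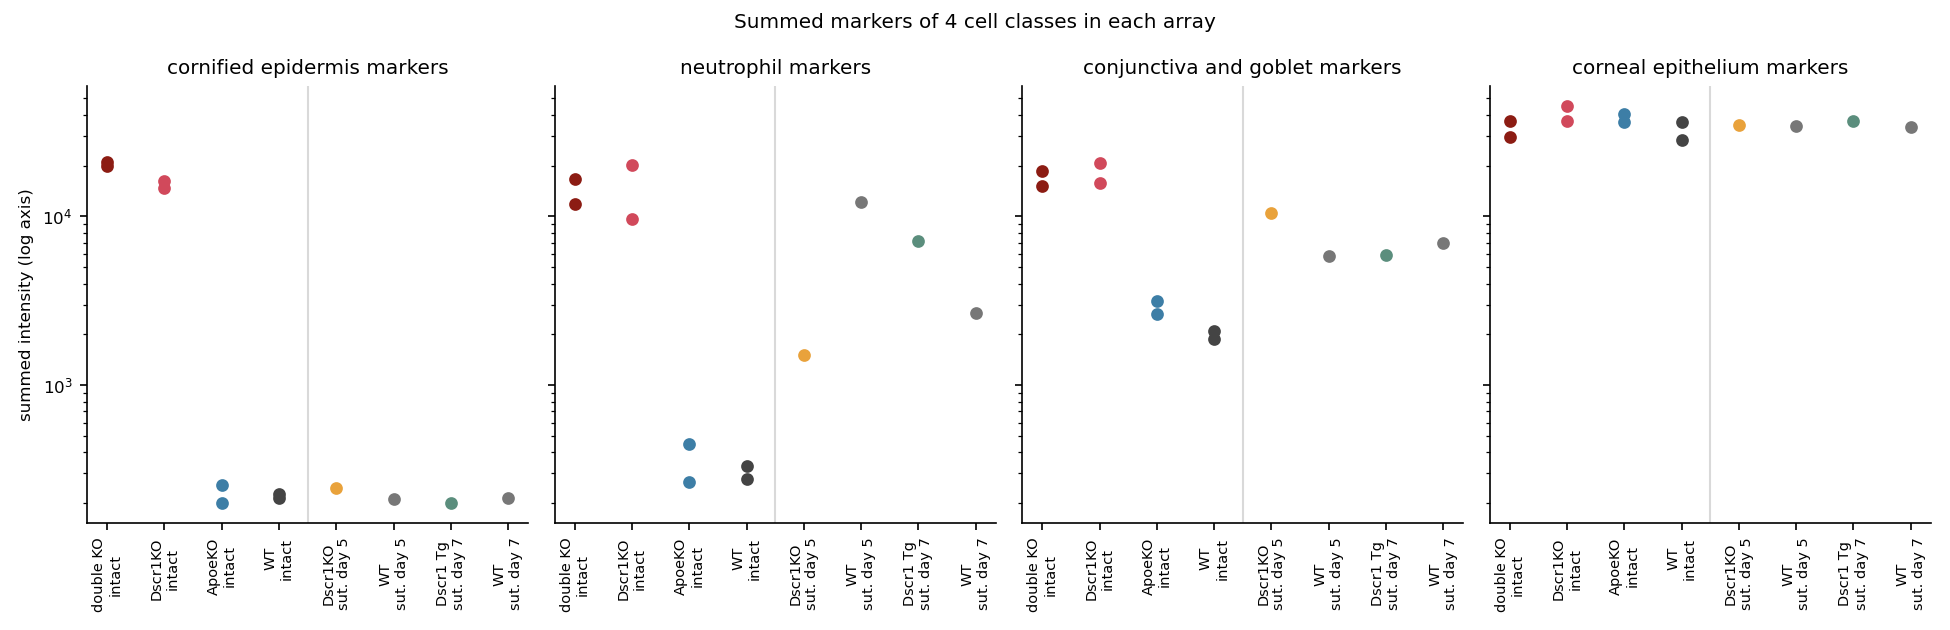
Summed intensity on a log axis of the markers of 4 cell classes in each array, 1 point per array. Cornified epidermis markers lie at 14695.8 or above in the 4 intact arrays without Dscr1 and at 258 or below in the other 8, while corneal epithelium markers lie between 28325.2 and 45162.3 throughout.

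Suturing was examined next, first in WT, where sutures are known to provoke inflammation and vessel growth from the corneal rim. Slpi, Ltf, Pglyrp1 and Wfdc18 read higher in both sutured WT corneas than in both intact ones, and the inducible defensins stayed at background. The share of all tested genes that did so is not given here. At day 5, 4 of the 7 genes were past 2-fold higher than the mean of intact WT, where 6.12% of all tested genes were, and 1 array allows no test. In a fit of the 4 WT arrays alone, an alternative to the fit over both genotypes given further on, with days 5 and 7 together, 2 of 7 genes passed as higher, where 3.23% of all genes did.

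Slpi read 247.4 at day 5 and 184.6 at day 7 in sutured WT, against 42.3 and 28.3 in intact WT, and rose by 2.51 ± 0.25 (adjusted p = 0.00969). Wfdc18 read 36.3 at day 5 and 98.9 at day 7, against 7 and 5.1 in intact WT, and rose by 2.74 ± 0.47 (adjusted p = 0.0353). For both genes the sutured arrays lay above the intact ones, and Slpi in sutured WT was below its lowest reading in intact Dscr1KO, 1587.8. Ltf read 202.6 at day 5 and 454.9 at day 7, against 95.4 and 76.3 in intact WT, a change of 1.79 ± 0.37 (adjusted p = 0.0537). Pglyrp1 read 924.3 at day 5 and 550.6 at day 7, against 409.1 and 416.2 in intact WT, a change of 0.78 ± 0.24 (adjusted p = 0.126). These changes did not pass. Neither gene's sutured arrays overlapped the intact ones, a pattern whose share among all genes is not given here.

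Defb3 read 1.9 at day 5 and 0.6 at day 7 in sutured WT, and Defb4 read 0.9 and 0.6. These readings lie within or below those of intact WT, and all are below the added constant. Of the other antimicrobial genes, 8 of 14 rose and 0 fell in the same fit of 4 WT arrays, where 3.23% of all tested genes rose. S100a8 rose by 6.45 ± 0.62 (adjusted p = 0.00924) and Lcn2, which encodes an iron-siderophore-binding protein, by 4.35 ± 0.72 (adjusted p = 0.0324). Lyz1 and Lyz2, the lysozyme genes, rose by 3.47 ± 0.15 (adjusted p = 0.000741) and 3.66 ± 0.11 (adjusted p = 0.000291), and as near-identical genes their transcripts may not be told apart on the array. Neutrophil markers summed to 12225.1 at day 5 and 2693.7 at day 7 in sutured WT, against 332 and 279.9 in intact WT. Most of the day 5 sum came from S100a8 and S100a9, which read 4596.4 and 6191.6, so it partly repeats the antimicrobial genes. In sutured WT, Mmp9 read 35.2 at day 5 and 281.1 at day 7, and Itgam 66.4 and 202.4. Csf3r, Mmp8 and Ngp also read higher at day 7 than at day 5, while S100a8, S100a9, Lcn2, Stfa2l1, Cxcr2 and Cd177 read lower. The part of neutrophils in these changes was not tested.

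Between the sutured WT arrays, 2 of 7 genes were past 2-fold higher at day 7 than at day 5, where 3.26% of all genes were. Wfdc18 differed by 1.36 and Ltf by 1.15 on the log2 scale. Slpi, by contrast, differed by -0.42 and Pglyrp1 by -0.74. With 1 array per day, these differences have no replicate check.

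In Dscr1KO, the sutured cornea did not show the high defensin readings of the intact ones. At day 5, Defb3 read 1.4 in sutured Dscr1KO, against 552.8 and 515.8 in intact Dscr1KO. Defb4 read 2.4, against 835.9 and 1843.2, and Slpi read 213.7, against 1587.8 and 2136. The log2 differences were -6.75 for Defb3, -7.70 for Defb4 and -3.09 for Slpi. Wfdc18 went the other way, reading 298.9 in sutured Dscr1KO against 104.9 and 40.3 in intact Dscr1KO, a difference of 2.13. Ltf read 223.8, against 1943.6 and 561 in intact Dscr1KO, a difference of -2.20. Cornified epidermis markers summed to 247.1 and neutrophil markers to 1518.7 in sutured Dscr1KO, both below each intact Dscr1KO array, and their part was not tested. Xist also differed, at 6 in sutured Dscr1KO against 4104 and 5385.2 in intact Dscr1KO, so suturing and Xist cannot be told apart here.

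A fit with an interaction asked whether suturing acted differently in Dscr1KO and WT, on the 11 arrays without the transgene. It was added after the data were seen. Of the 7 genes, 3 were past the threshold as lower in Dscr1KO and 0 as higher, where 0.897% of all tested genes passed as lower and 0.126% as higher. The suturing effect in Dscr1KO minus that in WT was -5.59 ± 0.53 for Slpi (adjusted p = 0.00317). The other two were Defb3, at -6.65 ± 0.55, and Defb4, at -6.97 ± 0.59, and these differences come from the high intact Dscr1KO readings for which both were listed, so they carry no test. Ltf differed by -3.99 ± 0.87 and did not pass (adjusted p = 0.0771), although it passed without Dscr1KO intact replicate 1 (-3.10, adjusted p = 0.0175) or without replicate 2 (-4.89, adjusted p = 0.013). Wfdc18 differed by -0.60 ± 0.89 (adjusted p = 0.766). The sutured side of Dscr1KO is 1 array, its spread is assumed to equal that of the other groups, and the intact arrays are those of the first comparison. Xist read 4104 and 5385.2 in intact Dscr1KO, 6 in sutured Dscr1KO and at most 14.9 in intact and sutured WT. Suturing in Dscr1KO therefore cannot be told apart from this difference in Xist.

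The pooled fit, which took suturing as 1 effect in both genotypes, called 0 of 12711 genes (0%) by limma, with 1251 genes and 2 of the 7 at an unadjusted p under 0.05. Wfdc18 had a change of 2.49 ± 0.44 in it (adjusted p = 0.348), with all 3 sutured arrays above the intact WT arrays and WT at day 5 below both intact Dscr1KO arrays. Slpi had a change of 0.27 ± 1.06 (adjusted p = 0.951), its sutured readings lying above intact WT and below intact Dscr1KO.

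**Figure D5:**
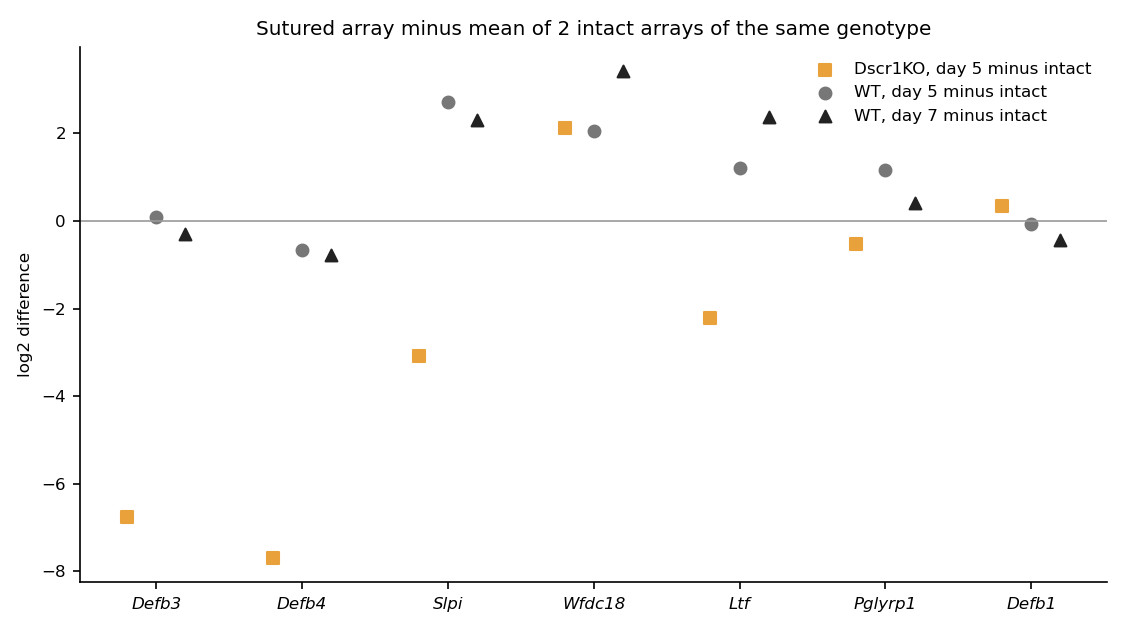
Log2 difference between 1 sutured array and the mean of the 2 intact arrays of the same genotype, for the 7 tested genes. Defb3, Defb4 and Slpi lie at -3.09 or below in Dscr1KO, while Wfdc18 lies between 2.05 and 3.42 in all 3 sutured corneas.

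Set against each other, sutured corneas differed little in these genes apart from Wfdc18. At day 5, 1 of 7 genes was past 2-fold higher in Dscr1KO than in WT, and 0 past 2-fold lower, where 4.11% of all genes were higher and 1.94% lower. That gene was Wfdc18, at 298.9 in Dscr1KO against 36.3 in WT, a difference of 2.92. At day 7, 1 of 7 genes was past 2-fold lower in Tg than in WT, where 3.45% of all genes were, and it was again Wfdc18, at 12.7 in Tg against 98.9 in WT, a difference of -2.65. Each sets 1 array against 1 array, so neither has a replicate check, and the day differs between them. At day 5, Slpi read 213.7 in Dscr1KO against 247.4 in WT, and at day 7 it read 136 in Tg against 184.6 in WT. For Ltf, day 5 gave 223.8 in Dscr1KO against 202.6 in WT, and day 7 gave 276.2 in Tg against 454.9 in WT. All 4 of these pairs lay within 2-fold. Pglyrp1 on day 5 was 659.4 in Dscr1KO against 924.3 in WT, and on day 7 it was 942.5 in Tg against 550.6 in WT. Defb1, bright as in the intact corneas, had 2726.2 in Dscr1KO against 2160.5 in WT on day 5, and 1796.4 in Tg against 1677.6 in WT on day 7. In Tg, Defb3 and Defb4 read 0.9 and 0.8, at background as in the other sutured corneas.

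Across the 12 arrays, each gene was set beside the other 12710 tested genes by the root mean square difference of log2 values centred on each gene's mean, where a smaller value is more alike. The arrays share genotypes and suturing, so these values describe and carry no test. Nearest to Defb3 were Rptn (0.563), Serpinb12 (0.575) and Defb4 (0.585), and nearest to Defb4 were Rptn (0.49), Calm4 (0.543) and Defb3 (0.585). Rptn encodes repetin, a protein of the cornified cell layer, and Serpinb12 an intracellular serine protease inhibitor. Slpi lay nearest to Car12 (0.562), a carbonic anhydrase gene, Serpinb2 (0.588), which encodes a plasminogen activator inhibitor, and Fabp4 (0.664), a fatty acid carrier gene. Its distance was 1.71 to Defb3 and 2.01 to Defb4.

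The other genes kept different company. Ltf lay nearest to Cyp4f18 (0.412), a myeloid cytochrome gene, Gimap4 (0.438), a lymphocyte GTPase gene, and AB124611 (0.455). Wfdc18 had no close neighbour, with Omd (0.7), Mmrn1 (0.708) and C1qb (0.743), a complement gene of macrophages, nearest to it. Pglyrp1 lay nearest to Snx10 (0.308), a sorting nexin gene. Defb1 lay nearest to Znrf3 (0.129), a ubiquitin ligase gene, with small distances because it varied by only 0.252 around its own mean.

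In the RefSeq gene order (GRCm38.p6), Defb1, Defb3, Defb4, Defb14 and Defb6 lie on chromosome 8, and Defb14 and Defb6 are the next genes on either side of Defb4. The genes next to the 9 listed ones number 16, of which 12 had a probe set and 8 were tested, and 4 of these passed as higher and 0 as lower on average with Dscr1 loss, beside 16.2% and 15.3% of all tested genes. Of the 4, Wfdc21 and Defb6 pass the filter only through the intact arrays without Dscr1. The genes on either side of Wfdc18 on chromosome 11 are its relatives Wfdc17 and Wfdc21, of which Wfdc17 rose by 4.09 ± 0.47 (adjusted p = 0.000803), and the fitted change of Wfdc21 was 3.92 ± 0.25. Beside Ltf on chromosome 9, the chemerin-binding receptor gene Ccrl2 rose by 1.5 ± 0.39 (adjusted p = 0.0228). The fourth was Defb6. Svs5 beside Slpi on chromosome 2 was too dim to be tested, and Matn4 on its other side had a change of -0.26 ± 0.27 (adjusted p = 0.487).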

How the data were processed

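Whole-cornea RNA was measured on 12 Affymetrix arrays of 45101 probe sets, labelled from 100 ng of total RNA per the labels' protocols. The deposited values are linear probe-set intensity. The authors had scaled them, since leaving out 2% at either end gives every array a mean of 100, by software not given in the sources used here. Groups follow the titles, genotypes, suturing and days in the labels. Of the probe sets, 34958 with a single symbol in the platform table were used.

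Intensities were turned into log2(intensity + 3.6), 3.6 being the 20th percentile of all values. The probe set with the highest mean log2 stood for a gene, and genes at or above the 40th percentile of mean log2 were tested. limma (3.58.1, R 4.3.3) fitted the 8 intact arrays by group, with a trend on intensity, and p-values were adjusted by Benjamini-Hochberg over 12711 genes, with calls at 0.05. Suturing was fitted on 7 arrays with Dscr1 genotype as a term. The fit was tested on simulated data. Single arrays were compared as log2 differences, called past 2-fold. The interaction of suturing with Dscr1 genotype was chosen after seeing the data. Genes that pass the filter only through the intact arrays without Dscr1 were also identified afterwards, and are given without p-values. matplotlib 3.10.9 (python 3.11.15) drew the plots.

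The members and lists were chosen with earlier results of these data known. The rule for names covers all members, the 3 tested genes nearest to each, up to 4 genes of each list with the largest changes past the threshold, and markers. Named outside it, some after their values were seen, are Lyz1, Lyz2, Lcn2, Ang, Il17re, the dim proteases and the chromosomal neighbours. Same-numbered replicates deviated with r between -0.046 and 0.075 across genes, so the numbers pair nothing. Alternatives were other pseudocounts (1.2 and 10.2), a filter at the 60th percentile or none, quantile normalization, probe sets chosen or tested otherwise, no trend, fits of the compared groups or the WT arrays alone, a replicate block, each array left out, Xist as a term, only arrays with Xist, and leaving out both libraries of doubtful Apoe level.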

Additional observations from a re-analysis of the deposited data

Results flagged for a closer look

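The change of Slpi with suturing differed between Dscr1KO and WT, by -5.59 on the log2 scale in a limma interaction term that was added after the data were seen. The same term was -6.65 for Defb3 and -6.97 for Defb4, which were listed for their high intact Dscr1KO readings, so these values are descriptions and no test. Defb3 and Defb4 were high in intact Dscr1KO and near background in sutured Dscr1KO, and near background in sutured and intact WT. Slpi was lower in sutured than in intact Dscr1KO and higher in sutured than in intact WT. The sutured Dscr1KO side is 1 array, and cornified epidermis and neutrophil markers were also lower on it than on the intact Dscr1KO arrays. Their part in the result was not tested. Xist was high in intact Dscr1KO (4104 and 5385.2) and low in sutured Dscr1KO (6) and in WT (at most 14.9). Suturing in Dscr1KO cannot be told apart from this difference.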

How the results depend on the processing

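The 5 genes past the threshold on average with Dscr1 loss, Defb3 and Defb4 included, numbered between 4 and 7 over 20 alternatives, and the lowest count came with the filter at the 60th percentile, which removed Defb3 from the test. Leaving out 1 array gave between 5 and 7. For Dscr1KO against WT, leaving out 1 array gave between 3 (without WT replicate 2) and 6 genes, and Xist as a term gave 3. Both counts of 3 were Defb3, Defb4 and Slpi. For double KO against ApoeKO, leaving out 1 array gave between 3 (without ApoeKO replicate 2) and 7. For ApoeKO against WT, fitting only the groups compared gave 1 gene, Pglyrp1. For sutured against intact, leaving out 1 array gave between 0 and 1 gene (Slpi, without sutured Dscr1KO) and the WT arrays alone gave 2. The interaction of suturing with Dscr1 genotype gave between 3 and 5 genes with 1 array left out, the highest without Dscr1KO intact replicate 2. Past 2-fold between sutured Dscr1KO and WT at day 5 were 2 genes without a filter, Camp being the second. Reversed were Defb1 in Dscr1KO against WT, at 0.10 without both libraries of doubtful Apoe level and between -0.26 and 0.10 with 1 array left out, and Wfdc18 in the interaction of suturing with genotype, at 0.05 without Dscr1KO intact replicate 1 and 0.0771 without sutured WT at day 7, in a range between -1.28 and 0.0771. The cause was not tested. A replicate block moved the averaged count to 6, with Pglyrp1 added (adjusted p = 0.049), and left 5 in each Dscr1 comparison and 0 in the Apoe and interaction tests; the replicates share only a number. Counts over all genes moved more, from 1046 to 6773 around 4003 for the average, 263 to 3849 around 1482 for Dscr1KO against WT, 516 to 3918 around 2476 for double KO against ApoeKO, 0 to 203 around 3 for ApoeKO against WT, 0 to 50 around 1 for the interaction of Dscr1 and Apoe loss, 0 to 583 around 0 for suturing and 27 to 1923 around 130 for its interaction with genotype. Readings near the added constant have no order, so the sizes for Defb3 and Defb4 follow it.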
